A study of Mus musculus with 4 samples.

Results

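Single-base substitutions inside introns were examined in poly(A) RNA of 2 mouse cancer cell lines. A listed variant was taken when its reference and alternative alleles were 1 base each and its annotated effect was an intron variant. The rule used position and annotation and no read count. It found 121 substitutions in LM8, among 2802 listed substitutions and 5445 listed variants, and 134 in MBT2, among 3169 substitutions and 6361 variants. The 255 entries stood at 244 distinct sites, since 11 were listed in both lines. LM8 is an osteosarcoma line and MBT2 a bladder cancer line (clone label 63), both syngeneic with C3H/HeN mice. Both were grown with 10% serum and without treatment, LM8 in MEM with HEPES and MBT2 in an RPMI medium, and each line gave 2 directional poly(A) libraries. Nothing in the labels states that the 2 libraries of a line came from separate cultures, and their spread may be technical.

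Introns are copied into the primary transcript and removed by splicing before a poly(A) messenger RNA leaves the nucleus. Reads from introns can still enter a poly(A) library from unspliced or partly spliced transcripts, from introns that are kept, and from other transcribed units that lie inside the intron, such as retrogenes, repeats with their own promoters and noncoding RNAs, on either strand. Adenosine-to-inosine editing, which is read as an A-to-G change on the RNA strand, is known to fall largely on double-stranded repeats in introns and untranslated regions. A directional library keeps the strand of each RNA, and the deposited lists give, for each allele and library, the number of read pairs in each orientation.

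Each line has 1 list called over both libraries, so all tests below count listed sites or reads of 1 list per line. They set 1 list against another and say nothing of repeated cultures. Tests are two-sided Fisher's exact tests with a threshold of 0.05, adjusted by Benjamini-Hochberg where a family holds more than 1 test. Intervals are 95% Clopper-Pearson (exact) intervals and cover only counting error. The cell identity of the lines could not be checked on these sites: 0 of 16 epithelial and urothelial marker genes had a listed variant in either line, and 3 of 14 osteoblast marker genes had one in LM8 and 1 in MBT2, none of them an intronic substitution.

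Introns held a small share of the substitutions, and the lines did not differ in it past the threshold: 4.32% of the LM8 substitutions (interval 3.6 to 5.14) and 4.23% of the MBT2 substitutions (3.55 to 4.99). The odds ratio of MBT2 to LM8 was 0.978 with p = 0.898 by Fisher's exact test. The LM8 entries lay in 89 genes, of which 71 had 1 entry, and the MBT2 entries in 104 genes, of which 88 had 1. The annotated transcript was protein coding at 92 LM8 and 96 MBT2 sites, and an unprocessed pseudogene at 11 sites in each line. By chromosome, 28 of the LM8 sites (23.1%) and 19 of the MBT2 sites (14.2%) lay on chromosome 8, which holds Def8 and the pseudogenes Gm21811 and Gm21092, described below. Def8 held 12 of these sites in LM8 and 5 in MBT2, and each of the pseudogenes 3 per line. The share of the other substitutions on chromosome 8 is not given here.

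Intronic sites were read less deeply than the others. Their summed depth over both libraries had a median of 54 reads in LM8 (14 to 3373) and 39 in MBT2 (14 to 3308), against 106 and 135 at the other substitutions. The libraries held 21235 and 19293 reads at the intronic sites of LM8 (replicates 1 and 2) and 9414 and 9966 at those of MBT2. No more than 3 alternative reads in all supported 23 LM8 sites (19.0%) and 33 MBT2 sites (24.6%). The share of alternative reads at such sites is imprecise, and replicate differences there were not detectable at this depth. The alternative allele had no read in replicate 1 at 10 LM8 and 5 MBT2 sites, and none in replicate 2 at 5 and 9.

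At most intronic sites in LM8, and at nearly as many as not in MBT2, the reads came from the strand opposite to the annotated gene. At each site the share of read pairs in the direction of the annotated gene was computed. At least 90% of pairs had that direction, called sense here, at 34 of 120 LM8 sites with pair counts (28.3%, 20.5 to 37.3) and at 63 of 134 MBT2 sites (47.0%, 38.3 to 55.8). At substitutions in coding exons, where the orientation was calibrated, the same was true of 971 of 978 LM8 sites (99.3%) and 1126 of 1136 MBT2 sites (99.1%). Both differences passed the test, with an odds ratio of 0.00285 in LM8 (adjusted p = 3.33e-90) and 0.00788 in MBT2 (adjusted p = 3.47e-67) by Fisher's exact test. Substitutions in 3′ UTRs resembled the coding ones, at 97.7% of 1110 sites in LM8 and 98.3% of 1296 in MBT2.

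Hardly any intronic site mixed both strands. At most 10% of pairs were sense, called antisense here, at 85 LM8 sites (70.8%) and 66 MBT2 sites (49.3%). Only 1 LM8 site and 5 MBT2 sites lay between these limits, and 1 LM8 site, in Sgip1, had no pair counts. The duplicates gave the same picture: the site was on the same side of 50% in both libraries at 119 of 119 LM8 sites and 134 of 134 MBT2 sites with pairs in both. The sense share was 28.3% and 28.6% of sites in the LM8 replicates and 47.0% in each MBT2 replicate. Antisense sites occurred in genes of both annotated strands, at 40 of 62 sites in plus-strand genes and 45 of 59 in minus-strand genes in LM8, and at 38 of 76 and 28 of 58 in MBT2.

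**Figure D1:**
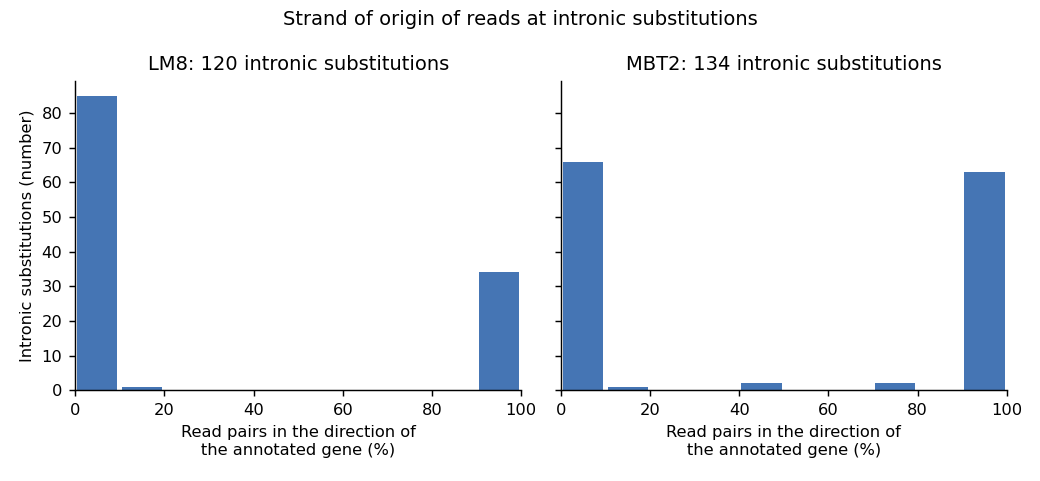
Number of intronic substitutions (vertical axis) by the percent of read pairs in the direction of the annotated gene (horizontal axis, bins of 10 percentage points), with both libraries of a line summed. Sites pile up in the lowest and highest bins, 85 and 34 in LM8 (left) and 66 and 63 in MBT2 (right), with at most 5 between.

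The sense share was higher in MBT2 than in LM8. The odds ratio was 2.24 with p = 0.00286 by Fisher's exact test, a comparison made after the orientation had been seen. Among sites with at least 40 reads it did not pass the threshold, with 40% sense in MBT2 against 26.0% in LM8, an odds ratio of 1.89 and p = 0.102 by Fisher's exact test. Without the sites in Def8 the shares were 48.8% and 31.5% and the odds ratio 2.08.

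Sense sites lay more often than antisense sites in genes that also had a listed exon variant, in the MBT2 list. A variant counted as an exon variant unless its effect was intronic, splice, intergenic, upstream, downstream, a gene fusion or a deleted transcript. Insertions and deletions of any length were included. Reads over the exons themselves were not compared. In MBT2, 18 of 63 sense sites (28.6%, 17.9 to 41.3) were in a gene with such a variant, against 3 of 66 antisense sites (4.55%, 0.947 to 12.7). The odds ratio was 8.40 with an adjusted p of 4.60e-04 by Fisher's exact test, a comparison also made after the orientation had been seen. The LM8 values were 3 of 34 and 2 of 85, with an odds ratio of 4.02 and an adjusted p of 0.140. With 1 substitution per gene the MBT2 odds ratio was 4.65 with an adjusted p of 0.0531, and with at least 40 reads 5.1 with an adjusted p of 0.119, neither past the threshold by Fisher's exact test.

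The introns that held these sites were long. In the GENCODE M21 annotation, matched by transcript and intron number for all 255 entries, their median length was 24144 bases in LM8 (725 to 747392) and 18012 in MBT2 (287 to 729767), against a median of 1363 bases over 692810 introns counted per transcript. The number of bases at which a variant could be listed in each intron was not adjusted for. Median intron length was 24144 bases at antisense and 15860.5 at sense sites in LM8, and 25464.5 and 7289 in MBT2. An exon of another annotated gene on the opposite strand lay somewhere in the same intron at 29 antisense LM8 sites (34.1%) and 14 antisense MBT2 sites (21.2%), and at 5 (14.7%) and 12 (19.0%) sense sites. At the remaining antisense sites the annotation gave no opposite-strand exon in the intron. Intron 1 held 35 LM8 sites (28.9%) and 49 MBT2 sites (36.6%).

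Def8, a protein-coding gene on the plus strand of chromosome 8, held the most intronic substitutions in LM8 and, tied with Ninj2 and Gm2682, in MBT2. Its intron 1 carried 12 sites in LM8, over 6221 bases, and 5 in MBT2, over 4757 bases. They were also by far the deepest in LM8, at 2127 to 3373 reads a site, and supplied 76.7% of all reads at intronic substitutions in LM8 and 50.2% in MBT2. The reads ran against the gene, with 11 of 28874 pairs in the sense direction in LM8 and 0 of 9161 in MBT2. Whether they came from this intron or from similar sequence elsewhere was not tested.

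In LM8 the alternative-allele fractions at Def8 fell into a low and a higher group. At 9 of the 12 LM8 sites 1.85% to 5.38% of reads were alternative. The other 3 sites stood higher: position 124156812 (GRCm39) had 16.3% and 16.7% alternative reads in replicates 1 and 2, position 124157080 had 19.0% and 18.2%, and position 124160083 had 15.9% and 17.7%. All 12 LM8 changes were between C and T or G and A, 9 of them G-to-A on the strand that was read. The same held for 3 of the 5 MBT2 changes, all 3 of them G-to-A on that strand. Among the other LM8 substitutions in transcripts, G-to-A made up 28.0% and C-to-T 8.74% on the read strand. In MBT2, position 124156452 had 31.3% and 34.0% alternative reads and position 124158442 had 3.6% and 2.38%. The 2 MBT2 sites farthest along the intron were shallow, with 16.4% of 61 reads at position 124161059 and 95% of 20 reads at position 124161208.

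Only 1 of the Def8 sites, position 124156815, was listed in both lines, and there the lines differed. LM8 had 6.07% alternative reads of 1286 in replicate 1 and 4.60% of 1151 in replicate 2. MBT2 had 34.9% of 1479 and 36.8% of 1561. The duplicates of a line stood within 2 percentage points of each other, and the lines did not overlap. The summed values were 5.38% of 2437 reads and 35.9% of 3040 reads, with an adjusted p of 9.18e-178 by Fisher's exact test over 1261 variants listed in both lines. The test compares the reads placed at this position, and their origin was not tested.

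**Figure D2:**
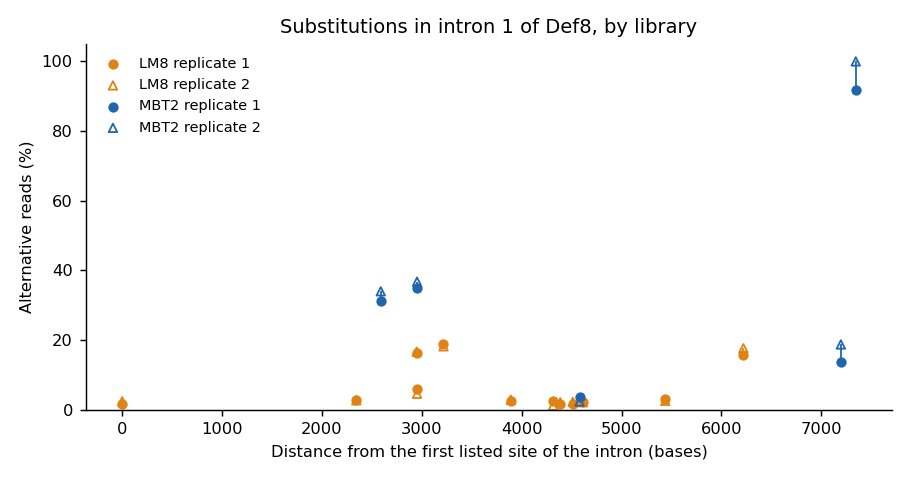
Percent of alternative reads (vertical axis) at the listed substitutions in intron 1 of Def8 against the distance in bases from the first listed site (horizontal axis), with replicate 1 as filled circles and replicate 2 as open triangles joined by a line. Duplicates lie within 3 percentage points at every site of at least 2127 reads and farther apart at the 2 shallow MBT2 sites on the right, and at the 1 shared site MBT2 reaches 34.9% and 36.8% where LM8 reaches 6.07% and 4.60%.

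None of the other 10 sites listed in both lines was called. Across all shared variants the same test called 92 of 1261 (7.3%), beside 1 of 11 here. The A-to-G change on the RNA strand in Rpl7a-ps12, a ribosomal protein pseudogene on the X chromosome (position 151692576), had 26.0% and 21.3% alternative reads in the LM8 replicates and 28.1% and 22.2% in the MBT2 replicates. In the noncoding locus A930015D03Rik (chromosome 17, position 36319858), 90.2% of 61 reads were alternative in LM8 and 92.9% of 28 in MBT2. In Tek, the gene of the angiopoietin receptor Tie2, all 15 LM8 and all 14 MBT2 reads at position 94701790 of chromosome 4 were alternative, on the antisense strand. In 2900092C05Rik the values were 96.0% of 25 and 91.7% of 24 reads. Tek, 2900092C05Rik and Rnf216 are shallower than the 8 deepest shared sites and were added after their values were seen, so that all 11 are given.

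The other shared sites had low fractions in both lines. Gm21811 had 17.1% of 129 reads in LM8 and 15.4% of 78 in MBT2. Sectm1a, which encodes a secreted and transmembrane protein, had 2.57% of 272 and 2.72% of 184 reads. The remaining shared sites were in Aopep (5.56% of 90 and 4.41% of 68), Gm12132 (9.68% of 62 and 10.3% of 39), Slco1a6 (7.14% of 56 and 10.3% of 29) and Rnf216 (13.3% of 30 and 8.70% of 46). At these depths differences of a few percentage points were not detectable. Sharing did not differ past the threshold from that of other substitutions: 9.09% of the intronic substitutions of LM8 were shared against 8.17% of the others, and 8.21% against 7.22% in MBT2 (odds ratios of 1.12 and 1.15, adjusted p = 0.734 for both by Fisher's exact test).

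Some unshared intronic sites lay near one of the other line. An intronic site of the other line lay within 100 bases of 10 of the 110 unshared LM8 sites (9.09%) and of 10 of the 123 unshared MBT2 sites (8.13%). The same measure among the other substitutions gave 97 of 2462 (3.94%) and 96 of 2816 (3.41%), and the difference was not tested. Sites of the dense Def8 intron are among the intronic ones counted, such as LM8 position 124158476 beside MBT2 position 124158442. They were not left out. In intron 13 of Cfhr4, a complement factor H-related gene, LM8 had 14.6% alternative reads of 41 at position 139656693 of chromosome 1 and MBT2 12.9% of 31 at position 139656689. In intron 7 of the potassium channel gene Kcnu1, LM8 had 9.38% of 32 reads at position 26363768 of chromosome 8 and MBT2 11.1% of 36 at position 26363755. The Cfhr4 and Kcnu1 examples were chosen after their values were seen, and the reads at all 4 of these sites were antisense. In all, 27 genes held intronic substitutions in both lines, 30.3% of the LM8 genes and 26.0% of the MBT2 genes, beside 32.6% of 1958 and 28.8% of 2215 genes for the other substitutions.

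Alternative-allele fractions of intronic substitutions formed a low and a high group with nothing between 40% and 60%. The highest fraction of the low group was 25% in LM8 and 35.9% in MBT2, and the lowest of the high group 74.2% and 67.0%. Per the file headers, the authors' filters removed sites scored as germline, and their part in the empty range was not tested. The calls had no matched normal sample. Inherited differences of the lines from the reference genome therefore cannot be told apart here from other changes. The high group held 32 LM8 sites, 12 of them with no reference read, and 44 MBT2 sites, 19 with none. It was shallow, with a median of 20.5 reads (14 to 112) in LM8 and 20 (14 to 297) in MBT2, against 70 and 46.5 reads in the low group. The 4 high sites of more than 100 reads, in Rsrc1 in LM8 and in Pkm, Dis3l2 and Il1rapl2 in MBT2, had 67.0% to 81.6% alternative reads, at the lower end of the group. By strand, 7 of the high LM8 sites were sense and 23 antisense, and 24 and 19 of the MBT2 ones.

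A fraction of at least 0.2 was more frequent at intronic than at other substitutions, in shallow sites. It was reached by 35 of 121 LM8 sites (28.9%, 21 to 37.9) against 12.8% of 2681 others, an odds ratio of 2.78 with an adjusted p of 8.25e-06. In MBT2 it was reached by 50 of 134 sites (37.3%, 29.1 to 46.1) against 22.5% of 3035, an odds ratio of 2.05 with an adjusted p of 1.45e-04, both by Fisher's exact test. At sites with at least 40 reads the odds ratios were 1.59 (adjusted p = 0.335) and 1.09 (adjusted p = 0.755) by Fisher's exact test. Fraction and depth were tied among the listed intronic sites. The shallowest site below 0.2 had 22 reads in LM8 and 25 in MBT2, against 14 in each line at or above 0.2. Intronic and other sites were not matched for depth in comparing this share. Within introns, MBT2 and LM8 did not differ past the threshold in this share, with an odds ratio of 1.46 and p = 0.184 by Fisher's exact test. By the same exact test it passed without MBT2 replicate 1 (1.81, p = 0.0333) and without MBT2 replicate 2 (1.71, p = 0.0479), where sites with no alternative read in the remaining library drop out.

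**Figure D3:**
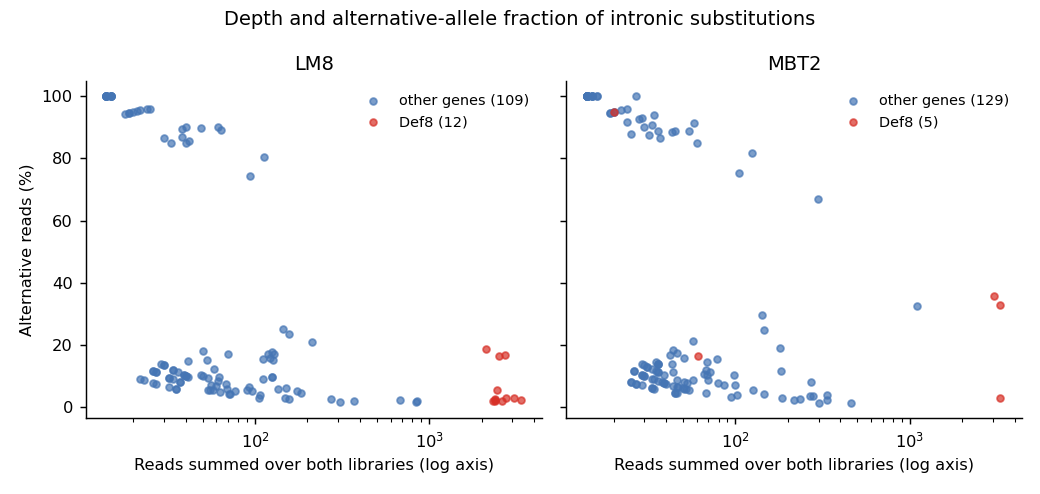
Percent of alternative reads (vertical axis) against reads summed over both libraries (horizontal axis, log scale) for every intronic substitution, with Def8 in red. The high group sits at low depth in both lines, at most 112 reads in LM8 and 297 in MBT2, and no site lies between 40% and 60%.

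The deepest site of the high group in either line was a sense one. Pkm, the pyruvate kinase of glycolysis, carried a C-to-A change in intron 8 in MBT2 (chromosome 9, position 59580203), with 67.8% alternative reads of 146 in replicate 1 and 66.2% of 151 in replicate 2, the lowest fraction of the high MBT2 group. Rsrc1, which encodes an arginine- and serine-rich protein of the splicing machinery, had 83.3% of 60 and 76.9% of 52 reads in LM8 at position 66935991 of chromosome 3. MBT2 had 95% of 20 and 81.3% of 16 reads at position 66935776, in the same intron 3 of Rsrc1, a site added after its values were seen. Ccn4, a matricellular protein gene and Wnt target, had 96.2% of 26 and 82.6% of 23 reads in LM8 (chromosome 15, position 66789323).

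Antisense sites of the high group were also deep in places. Dis3l2, an exoribonuclease that degrades uridylated RNA, had 82.8% of 58 and 80.6% of 67 reads in MBT2 in its intron 10 (chromosome 1, position 86836917). Il1rapl2, an interleukin-1 receptor accessory-like gene on the X chromosome, had 79.2% of 48 and 71.9% of 57 reads in MBT2 in an intron of 522727 bases. The pseudogene Gm13377 had 73.9% of 46 and 74.5% of 47 reads in LM8 (chromosome 2, position 21081403). In Zfp839, a zinc finger gene, 89.7% of 39 and 88.0% of 25 LM8 reads were alternative, with 11.3% of pairs in the sense direction, just above the limit for an antisense site.

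Deep sites also stood in the range from 20% to 40%. Gm2792, an unprocessed pseudogene on chromosome 17 (position 6396284), had 32.0% of 540 and 33.0% of 557 reads in MBT2, all of them sense. In MBT2, antisense sites in this range included Def8 at positions 124156452 (32.7% of 3301 reads) and 124156815 (35.9% of 3040). Others were in Ninj2 in MBT2 (29.6% of 142 reads), and in Gm10338 (20.9% of 211) and Vat1l (25% of 144) in LM8. A pseudogene shares sequence with its parent gene, and reads of the parent or of another copy cannot be told apart here.

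**Figure D4:**
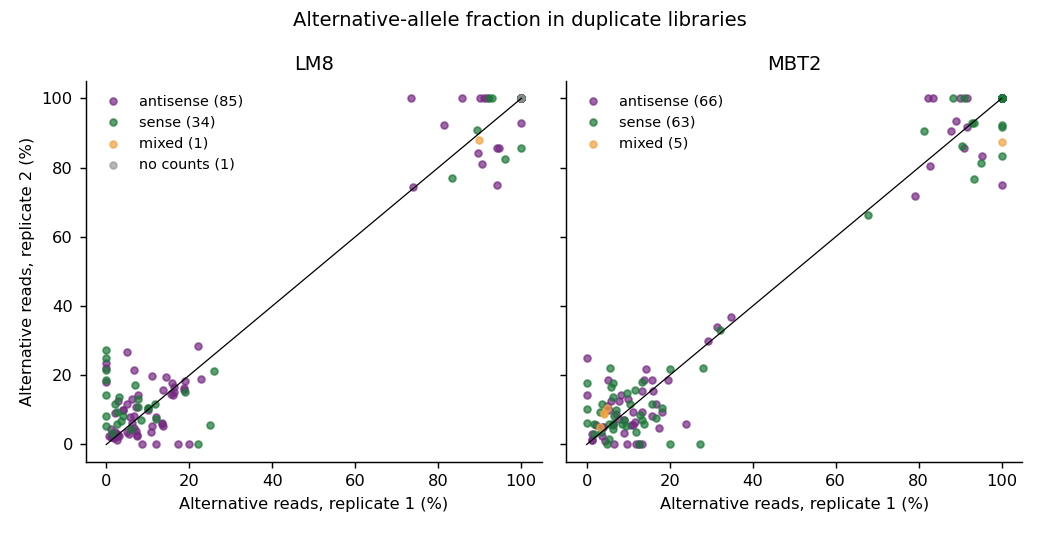
Percent of alternative reads in replicate 1 (horizontal axis) and replicate 2 (vertical axis) for every intronic substitution, coloured by the direction of its read pairs, with the line of equality. No site differed between duplicates after adjustment, and sites on the axes had no alternative read in 1 library.

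No intronic substitution differed between duplicate libraries after adjustment over the whole list. At an unadjusted p under 0.05, 4 of 121 LM8 sites (3.31%) and 3 of 134 MBT2 sites (2.24%) differed by Fisher's exact test, against 3.89% and 3.76% over all variants of each list, where none passed after adjustment either.

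Apart from Def8, the genes with the most intronic substitutions are described next. Ninj2, ninjurin of the nerve injury response, held 5 sites in its first intron in MBT2, all antisense, with 29.6% alternative reads at 1 site and 2.08% to 11.5% at the other 4. The locus Gm2682 held 5 sites in MBT2, each at 5.88% to 8% of 25 to 51 reads. All 5 were A-to-G on the strand that was read, which is opposite to the annotated gene. Ccdc15, a coiled-coil protein gene, held 3 antisense sites in LM8 at 1.55% to 2.01% of 371 to 845 reads, 2 of them 3 bases apart.

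Some sites lay side by side. In LM8, Zfp385c had 15.6% and 15.1% alternative reads at sites 4 bases apart, and Scarb2, a lysosomal membrane receptor, 9.60% and 17.6% at neighbouring bases. Rnf157, a ubiquitin ligase, had 15.3% and 2.68% in LM8. All 6 sites were antisense. Another listed substitution of the same line stood within 100 bases of 20 LM8 intronic sites (16.5%) and 12 MBT2 ones (8.96%), against 9.03% and 8.86% of the other substitutions, and at the next base of 4 sites in each line.

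Sectm1a carried 3 antisense sites per line in its intron 2, at 1.62% to 4.35% of reads in LM8 and 2.72% to 11.3% in MBT2. Bcdin3d, an RNA methyltransferase gene, held 3 sites in MBT2 at 3.92% to 6.52%, where both strands were read, with 47.0% to 72.1% of pairs in the sense direction. The unprocessed pseudogenes Gm21811 and Gm21092, both with an intron 4 of 3764 bases on chromosome 8, held 3 sites each per line, all sense, at 2.55% to 17.1% in LM8 and 4.14% to 15.4% in MBT2. Reads of neighbouring pseudogenes with introns of equal length may come from a copy, and their placement is uncertain.

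By the strand of the annotated gene, C-to-T changes were more frequent in introns than in other substitutions of transcripts. They made up 26 of 121 intronic substitutions in LM8 (21.5%) against 8.88% of 2174 others, an odds ratio of 2.81 with an adjusted p of 9.98e-04, and 20 of 134 in MBT2 (14.9%) against 6.68% of 2546, an odds ratio of 2.45 with an adjusted p of 0.0167, both by Fisher's exact test over 12 classes in 2 lines. No other class passed. At antisense sites this class is not the change in the RNA that was read, and classes on the read strand follow below. With 1 substitution per gene or without Def8, which supplied 9 of the LM8 and 3 of the MBT2 C-to-T changes, no class passed in either line.

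On the strand that was read, a setting chosen after the orientation had been seen, intronic substitutions held fewer T-to-C changes in LM8. They were 12 of 120 (10.0%) against 24.8% of the others, an odds ratio of 0.336 with an adjusted p of 0.00243, and C-to-T changes were 17.5% against 8.74% (2.21, adjusted p = 0.0359) by Fisher's exact test. No class passed in MBT2. A-to-G, the class of adenosine-to-inosine editing, was 30 of 120 in LM8 (25%) against 16.4%, an odds ratio of 1.70 with an adjusted p of 0.112. It was 41 of 134 in MBT2 (30.6%) against 21%, an odds ratio of 1.66 with an adjusted p of 0.101. A-to-G made up 23.6% of the low LM8 group and 28.1% of the high one, and 35.6% and 20.5% in MBT2. Between the lines 0 of 12 classes differed on either strand setting.

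Genes with an intronic substitution were few among all genes with any listed variant, 2.55% of 3495 in LM8 and 2.64% of 3933 in MBT2, and counts near 0 in short gene lists are read against that. Of 22 genes known as editing targets, 7 had a listed variant of any kind in LM8 and 8 in MBT2, and 1 had an intronic one: Gria4, a glutamate receptor subunit, with 9 of 10 and 10 of 10 alternative reads in the MBT2 replicates (chromosome 9, position 4494701). That change was G-to-A on the read strand, which was antisense to Gria4. Of 30 genes known to keep introns, 21 had a listed variant in LM8 and 22 in MBT2, and 0 had an intronic substitution. Of 22 noncoding host genes, 3 and 2 had a listed variant and 0 an intronic substitution.

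Intronic substitutions were more often known to the germline resource that the caller used. The population field differed from the value shared by most records (2.02 on the caller's −log10 scale) at 12 LM8 sites (9.92%, 5.23 to 16.7) against 3.43% of the others, an odds ratio of 3.10 with an adjusted p of 0.00143. In MBT2 it did at 15 sites (11.2%, 6.40 to 17.8) against 3.53%, an odds ratio of 3.45 with an adjusted p of 2.88e-04 by Fisher's exact test, a comparison made after the data were seen. Without Def8, which held 4 of the LM8 sites, the LM8 odds ratio was 2.23 with an adjusted p of 0.0567. They included 4 of the 32 high LM8 sites, such as Rsrc1 and Zfp839, and 7 of the 44 high MBT2 sites, such as Dis3l2 and Rsrc1. Intronic and other substitutions also differed in distance from the read end, given below, and were not matched for it.

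The alternative base seldom lay at the end of a read in introns. Its median distance from the read end was at most 3 bases at 10 of 121 LM8 sites (8.26%, 4.03 to 14.7) against 47.9% of 2681 other substitutions, an odds ratio of 0.0979 with an adjusted p of 6.63e-20. In MBT2 it was at 21 of 134 (15.7%, 9.97 to 23.0) against 46.3% of 3035, an odds ratio of 0.216 with an adjusted p of 2.63e-13, both by Fisher's exact test and compared after the data were seen. The median over sites was 19 bases in LM8 and 15 in MBT2, against 4 and 5 at the other substitutions. None of the comparisons of intronic with other substitutions above was matched for this distance, and its part in them was not tested.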

How the data were processed

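The deposited tables are 1 list of variants per line in variant call format 4.2, and the unit of the columns used is counts of reads per allele and library, with read pairs per orientation. Per the file headers, Mutect 2.2 called the 2 libraries of each line together, without a matched normal sample, GATK 4.1.5.0 filtered and selected the calls, and SnpEff 5.1d annotated them with database 105 of GRCm39. The submitters' processing notes give bcl2fastq 2.17.1.14, cutadapt 1.9.1, STAR 2.7.9a and GATK 4.3.0. Per the file headers, at most 2 events in a region were allowed, and no label or header used here names how spliced reads were handled.

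The alternative-allele fraction is the share of alternative among reference and alternative reads, with both libraries of a line summed. Strand and intron length came from GENCODE M21, of another build, by transcript identifier only, with no coordinate used. The intron substitutions and gene lists were chosen with earlier results of these data known. The genes named are, per line, the 8 with most sites (ties by depth), the 8 deepest sites at a fraction of at least 0.2, the 8 deepest shared sites and the sites in the gene lists; others are said to be chosen later. No intronic substitution lay inside a listed deletion of 21 or more bases, and sequence around the sites was not used here. Python 3.11.15, scipy 1.17.1 and pandas 2.3.3 were used. The per-site fraction test and the substitution-class test were tried on simulated data, and the other steps were not.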

Additional observations from a re-analysis of the deposited data

Results flagged for a closer look

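A difference between the lines was found in the strand of intronic reads: the sense share was 47.0% of 134 MBT2 sites against 28.3% of 120 LM8 sites, an odds ratio of 2.24 by Fisher's exact test (p = 0.00286). It did not pass the threshold at sites with at least 40 reads.

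At position 124156815 of chromosome 8, in intron 1 of Def8, the alternative-allele fraction of LM8 minus that of MBT2 was -30.5 percentage points, with every LM8 library below every MBT2 library and an adjusted p of 9.18e-178 by Fisher's exact test on reads summed over both libraries of a line. Whether the reads placed there came from this intron or from similar sequence elsewhere was not tested.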

How the results depend on the processing

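Of the recomputed values, 131 kept their direction and side of the threshold or, where the value was a count, its number. Among the rest, 6 fell short of the threshold, 3 came to pass it, 4 turned direction and 10 counts changed. An equal count of classes need not mean that the same class passed. At sites with at least 40 reads, the odds ratio for a fraction of at least 0.2 fell short of the threshold in LM8 (1.59) and MBT2 (1.09), as did the sense share between lines (1.89) and the exon share of sense against antisense sites in MBT2 (5.1). That exon share was 4.65 in MBT2 with 1 substitution per gene, and in LM8 it passed at 10.0 with an alternative read required in each library. The intron share between lines, 0.978, turned to 1.06 with 1 substitution per gene, 1.05 without Def8 and 1.01 without LM8 replicate 2 (0.95 to 1.01 over the libraries left out), and sharing in MBT2 turned to 0.826 with 1 substitution per gene; none of these passed the threshold in any setting. The fraction share of MBT2 against LM8 ranged from 1.09 to 1.81 with a library left out. Without Def8 the germline resource share in LM8 was 2.23. The number of substitution classes past the threshold, 1 in each line, was 0 in both lines with 1 substitution per gene, without strand and without Def8, 0 in MBT2 with private sites only, 2 in LM8 against 3′ UTR sites only, and 2 in LM8 and 0 in MBT2 with the strand from read pairs. The cause of these changes was not tested. The strand from read pairs, the classes without strand and the settings without Def8 were chosen after seeing the data. No paired analysis was possible because each line has 1 jointly called list, the results count listed sites, and the replicate numbers tie no library of one line to one of the other. At a median of 39 to 54 reads a site, fractions differing by a few percentage points could not be told apart.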
